A study of Homo sapiens with 15 samples.

Results

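ZC3H7A and ZC3H7B are the paralogous RNA-binding proteins whose dose was changed in this RNA-seq study of HEK293-derived cells, an established human line of embryonic kidney origin. The members described here are the 2 rows carrying those gene names among the 55773 genes of the deposited table, followed over all 15 libraries. For overexpression, Flp-In T-REx 293 cells were used that carried Flag/HA-ZC3H7A, Flag/HA-ZC3H7B or the Flag/HA-control, with 3 independent replicates of each. All 3 of these groups, the control included, received doxycycline at 1 µg/mL for 24 h, and no uninduced cells are compared here. Lysates were made in hypotonic polysome buffer, and TruSeq RNA v2 libraries from their poly(A) RNA. In the depletion experiment, 3 libraries labelled DD came from HEK293 cells in which ZC3H7A had been knocked out and ZC3H7B was targeted by an shRNA (ZC3H7A-KO-shZC3H7B), and 3 labelled Parental came from wild-type cells with a control shRNA (Wild-type-shCTR). Both had been selected with puromycin at 5 µg/mL and released 2 passages earlier, and a company prepared their libraries by another protocol. Values were therefore compared only within an experiment. The sources used here do not give the position of the edit, whether DD is a clone, how many lines carried each transgene, or whether the DD and Parental libraries are separate cultures, so p-values measure the spread between libraries and not between lines.

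Both proteins carry tetratricopeptide repeats, which bind other proteins, and zinc fingers of the CCCH kind, which bind RNA. Paralogs are genes derived from a common ancestral gene, and RNA-binding proteins often influence their own messages or those of a paralog. Most amino acids are encoded by several codons that differ in their last base, and the codon content of a message is known to be related to its translation and stability. The study asked how the 2 proteins act on messages of differing codon content, so the codon content of their own messages is given first.

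The 2 coding sequences lay near opposite ends of that scale. In GENCODE 29 on GRCh38, ZC3H7A (ENSG00000122299.11, chromosome 16) has a longest coding sequence of 2916 bases, and 64.2% of its 971 codons end in A or T. ZC3H7B (ENSG00000100403.11, chromosome 22) has a coding sequence of 2934 bases, and 19.0% of its 977 codons end in A or T. Among 19032 genes with a complete coding sequence the median share was 39.3%. For ZC3H7A 92.3% of genes had a lower share, and for ZC3H7B 10.9% did. The A+T share of the longest transcript differed in the same direction, at 59.8% for ZC3H7A and 40.8% for ZC3H7B. The first 90 coding bases of each, from the GENCODE transcripts, are printed with a capital wherever the last base of a codon is A or T.
ZC3H7A: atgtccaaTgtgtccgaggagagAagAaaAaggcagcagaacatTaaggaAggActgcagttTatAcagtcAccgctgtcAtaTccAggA
ZC3H7B: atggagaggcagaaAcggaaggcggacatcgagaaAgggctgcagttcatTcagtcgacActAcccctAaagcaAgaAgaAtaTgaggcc
In this opening stretch 14 of 30 ZC3H7A codons carry a capital, and 10 of 30 ZC3H7B codons do. The openings thus differ in the same direction as the whole coding sequences, but by less.

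The paralogs share no long identical stretch. Over 2763 aligned coding bases 60.4% were identical. The longest stretch that the 2 transcripts share without a mismatch was 14 bases, printed in capitals below with 15 bases on either side, at coding bases 2591 to 2634 of ZC3H7A and 2546 to 2589 of ZC3H7B.
ZC3H7A: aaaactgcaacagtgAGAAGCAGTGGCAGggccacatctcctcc
ZC3H7B: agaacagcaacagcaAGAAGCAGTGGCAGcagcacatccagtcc
The sources used here do not give the read length. No other protein-coding gene of the annotation overlaps either of them, and 1 small non-coding RNA gene overlaps ZC3H7A. Reads from a transgene and from the cell's own gene are summed in 1 row, and the codons and untranslated sequence of the transgenes are unknown here.

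The 9 overexpression libraries held 45.5 to 57.6 M reads and the 6 depletion libraries 12.2 to 15.5 M. In the Flag/HA-ZC3H7A group replicate 3 stood apart from the others, with a chi-square per gene of 17.9 and 23.0 against replicates 1 and 2, which differed from each other by 4.00. In Parental replicate 3 stood apart in the same way, with 16.5 and 11.1 against a value of 3.36 between the other two. Of 10 HEK293 genes, 9 reached a normalized count of 10 in every overexpression library and 8 in every DD and Parental library. Their sums were 26420 to 28634 in Flag/HA-ZC3H7A, 27737 to 29333 in Flag/HA-ZC3H7B, 19499 to 20121 in Flag/HA-control, 46682 to 50132 in DD and 44089 to 48692 in Parental. Sums of 5 leukocyte markers were 60.5 to 88.2 in Flag/HA-ZC3H7A, 23.0 to 29.1 in Flag/HA-ZC3H7B, 34.3 to 42.3 in Flag/HA-control, 73.4 to 103 in DD and 26.6 to 45.7 in Parental. The leukocyte markers PTPRC and CD3E were at 0 in all DD and Parental libraries. Sums of 4 endothelial markers reached 29.5 at most, with no marker at 10 in every library of a group. Sums of 5 fibroblast markers ran from 194 to 353 over the 15 libraries, with DCN and LUM under 10. The part of these marker differences in the members' values was not tested.

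Each gene was higher in the cells that carried its transgene, and the added dose of ZC3H7B was the larger. ZC3H7A had 3616, 3474 and 4423 normalized counts per kb of coding length in the Flag/HA-ZC3H7A libraries, against 1090.4, 1157 and 1105 in Flag/HA-control. ZC3H7B had 9571, 9104 and 9077 normalized counts per kb in the Flag/HA-ZC3H7B libraries, against 2028, 1983 and 2060.1 in Flag/HA-control. No library of a transgene group overlapped the controls for its own gene. How many of all genes were separated in this way is not given here. In bulk RNA, a higher or lower level in all cells and in a fraction of the cells cannot be told apart. In normalized counts, the unit of the tests, ZC3H7A averaged 11192 ± 1492 in Flag/HA-ZC3H7A and 3259 ± 102 in Flag/HA-control (SD, n = 3 each), a fold of 3.42 with a 95% interval of 3.05 to 3.83. ZC3H7B averaged 27142 ± 815 in Flag/HA-ZC3H7B and 5938 ± 114 in Flag/HA-control (SD, n = 3 each), a fold of 4.57 with an interval of 4.25 to 4.91. Both differences passed limma's test, a linear model on the log2 scale with a pseudocount of 1, with Benjamini-Hochberg adjusted p of 2.98e-09 for ZC3H7A and 7.55e-11 for ZC3H7B.

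**Figure D1:**
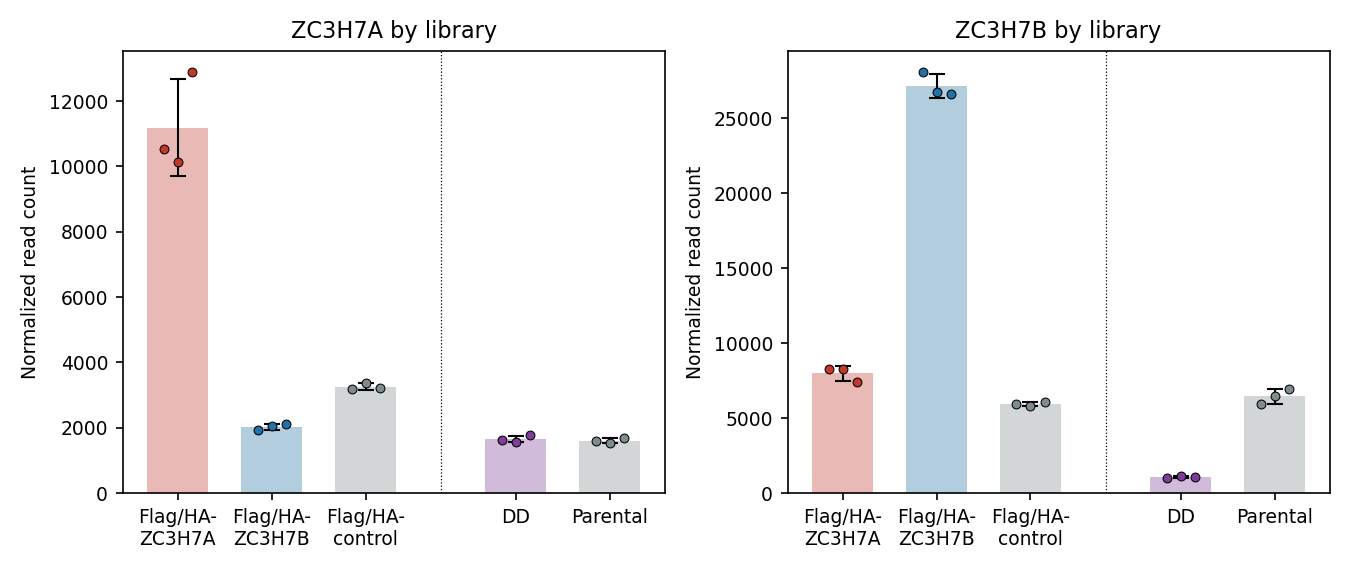
Normalized read counts of ZC3H7A (left) and ZC3H7B (right) in each of the 15 libraries, with bars at the mean of each group and error bars of 1 SD (n = 3). The dotted line separates the overexpression from the depletion experiment; ZC3H7A averages 1658 in DD and 1599 in Parental, while ZC3H7B averages 1084 in DD and 6463 in Parental.

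Those calls have to be read against how many genes moved. With Flag/HA-ZC3H7A 75.9% of 17673 tested genes were called at an adjusted p under 0.05, 34.7% higher and 41.2% lower. With Flag/HA-ZC3H7B 69.6% were called, 32.0% higher and 37.6% lower. The targeted genes were not at the top of either ranking: ZC3H7A took rank 136 of the fold changes with Flag/HA-ZC3H7A, and ZC3H7B took rank 35 with Flag/HA-ZC3H7B.

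As a difference from the controls, the added dose of ZC3H7A was 7933 ± 1496 normalized counts, or 2720.5 ± 513 per kb of coding length, which is 2.43 times the control level of that gene. The added dose of ZC3H7B was 21204 ± 823 normalized counts, or 7227 ± 280.4 per kb, which is 3.57 times its control level. Per kb of coding length the added dose of ZC3H7B was thus 2.66 times that of ZC3H7A. That ratio depends on the length used, and the longest transcripts have 3845 bases for ZC3H7A and 5909 for ZC3H7B. Per kb of transcript, ZC3H7A averaged 2911 in Flag/HA-ZC3H7A and 848 in Flag/HA-control. ZC3H7B averaged 4593 in Flag/HA-ZC3H7B and 1005 in Flag/HA-control, so its added dose was still the larger, but by a smaller ratio. These are levels of RNA, and protein was not measured here.

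The dose of ZC3H7A was also the less even. Its coefficient of variation in Flag/HA-ZC3H7A was 13.3%, against 3.13% in Flag/HA-control. Among 6423 genes that averaged 1000 or more in the Flag/HA-ZC3H7A libraries the median was 6.05%, and 91.6% of those genes varied less than ZC3H7A. The highest ZC3H7A value, 12898 normalized counts, was that of replicate 3, the library that stood apart, and without it the log2 fold change was 1.67 in place of 1.77. ZC3H7B varied by 3.00% in Flag/HA-ZC3H7B, close to the median of 2.91% in that group.

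Each paralog also differed from the controls where the other was overexpressed, and the directions were opposite. ZC3H7B had 8252, 8288 and 7390 normalized counts in Flag/HA-ZC3H7A, against 5951, 5818 and 6044 in Flag/HA-control. ZC3H7A had 1935, 2049 and 2113 normalized counts in Flag/HA-ZC3H7B, against 3180, 3374 and 3223 in Flag/HA-control. In neither case did the groups overlap, but the share of all genes without overlap is not given here. ZC3H7B was 1.34-fold higher in Flag/HA-ZC3H7A (95% interval 1.25 to 1.44, limma adjusted p = 5.19e-06), which is a log2 fold change of 0.42 with an SE of 0.0473. ZC3H7A stood at 62.3% of its control level in Flag/HA-ZC3H7B (interval 55.6% to 69.9%, limma adjusted p = 6.91e-06), which is a log2 fold change of -0.68 with an SE of 0.0756. Both comparisons share the same 3 control libraries.

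These cross-effects lay well inside the spread of all genes. With Flag/HA-ZC3H7A 21.1% of tested genes had a larger fold change than ZC3H7B, and with Flag/HA-ZC3H7B 16.3% had a lower one than ZC3H7A. In counts per kb of coding length, ZC3H7B gained 695 ± 178 where the ZC3H7A dose was added, and ZC3H7A changed by -421 ± 46.6 where the ZC3H7B dose was added. In Flag/HA-ZC3H7A the lowest of the 3 ZC3H7B values came from replicate 3, which had the highest ZC3H7A value. Without that library the log2 fold change of ZC3H7B was 0.48.

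Between the transgene groups themselves the 2 genes differed in opposite directions. ZC3H7A was 5.48-fold higher in Flag/HA-ZC3H7A than in Flag/HA-ZC3H7B (log2 fold change 2.45, 95% interval 2.29 to 2.62, limma adjusted p = 6.40e-10). ZC3H7B was 3.41-fold lower in Flag/HA-ZC3H7A than in Flag/HA-ZC3H7B (log2 fold change -1.77, interval -1.87 to -1.66, limma adjusted p = 1.84e-10). In this comparison 44.3% of genes were called, 23.9% higher and 20.4% lower in Flag/HA-ZC3H7A. Within the overexpression experiment ZC3H7A was therefore highest in Flag/HA-ZC3H7A, then Flag/HA-control, then Flag/HA-ZC3H7B, and every pair was called. ZC3H7B was highest in Flag/HA-ZC3H7B, then Flag/HA-ZC3H7A, then Flag/HA-control, again with every pair called.

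The cross-effects were then set beside the codon content of all genes. With either transgene, fold changes were on average higher for genes poor in codons ending in A or T and lower for genes rich in them, in a loess trend of the fold change on that share. With Flag/HA-ZC3H7A the trend stood at a log2 fold change of 0.35 for a share of 20%, 0.10 for 40% and -0.44 for 60%. With Flag/HA-ZC3H7B it stood at 0.22, 0.09 and -0.36 for the same shares. ZC3H7B, near the low end, and ZC3H7A, near the high end, fell on opposite sides of it.

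**Figure D2:**
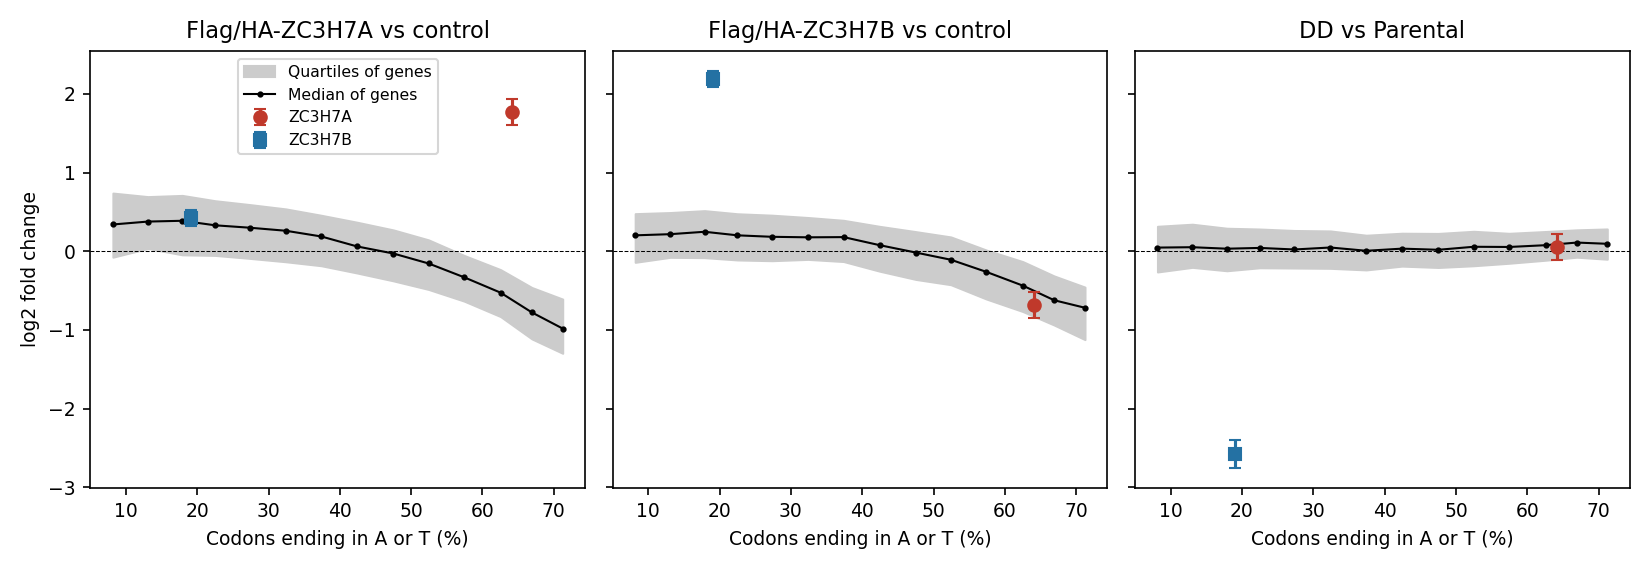
Log2 fold change against the percent of codons that end in A or T, for Flag/HA-ZC3H7A against control, Flag/HA-ZC3H7B against control and DD against Parental. The black line is the median of genes in bins of 5 percentage points, the grey band their quartiles, and the markers are ZC3H7A (circle) and ZC3H7B (square) with 95% intervals; ZC3H7B in the first panel, at 0.42, lies close to the line, and ZC3H7A in the second, at -0.68, lies below it with an interval of -0.85 to -0.52.

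At the codon share of ZC3H7B the trend with Flag/HA-ZC3H7A was 0.35, against a measured log2 fold change of 0.42. What was left for ZC3H7B once the trend was removed was 0.07 (95% interval -0.03 to 0.17, limma adjusted p = 0.21), which did not pass the test. At the share of ZC3H7A the trend with Flag/HA-ZC3H7B was -0.51, against a measured -0.68. The remainder for ZC3H7A was -0.17 (interval -0.34 to -0.01, limma adjusted p = 0.0569), just outside the threshold. In the fit of all 9 overexpression libraries neither cross-effect was thus called relative to genes of like codon content. There 71.9% of 13595 genes were called with Flag/HA-ZC3H7A and 68.8% with Flag/HA-ZC3H7B.

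The 2 remainders were not equally settled. For ZC3H7B it stayed uncalled when the loess was wider (0.07, limma adjusted p = 0.20), when only the 2 groups were fitted (0.07, adjusted p = 0.29) and when the A+T share of the transcript replaced the codon share (0.09, adjusted p = 0.11). For ZC3H7A it was called in each of these: -0.20 with limma adjusted p = 0.0309 for the wider loess, -0.17 with adjusted p = 8.19e-04 for the 2 groups alone and -0.21 with adjusted p = 0.0259 for the transcript share. These 3 alternatives were chosen after seeing the data. The SE of the ZC3H7A remainder was 0.0756 in the fit of all 9 overexpression libraries and 0.0382 with the 2 groups alone. The larger fit takes its spread also from Flag/HA-ZC3H7A, where ZC3H7A varied by 13.3%. Intervals of the remainders do not carry the error of the trend itself. Codon share and A+T share move together over genes, and their separate parts were not tested.

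The directly targeted rows kept their calls without the trend. ZC3H7A with Flag/HA-ZC3H7A had a remainder of 2.40 (95% interval 2.23 to 2.56, limma adjusted p = 4.45e-10), above its measured 1.77, since the trend at its share was -0.62. ZC3H7B with Flag/HA-ZC3H7B had a remainder of 1.97 (interval 1.87 to 2.07, limma adjusted p = 1.03e-10), below its measured 2.19. A remainder for a transgene assumes that its RNA has the codons of the annotated gene.

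**Figure D3:**
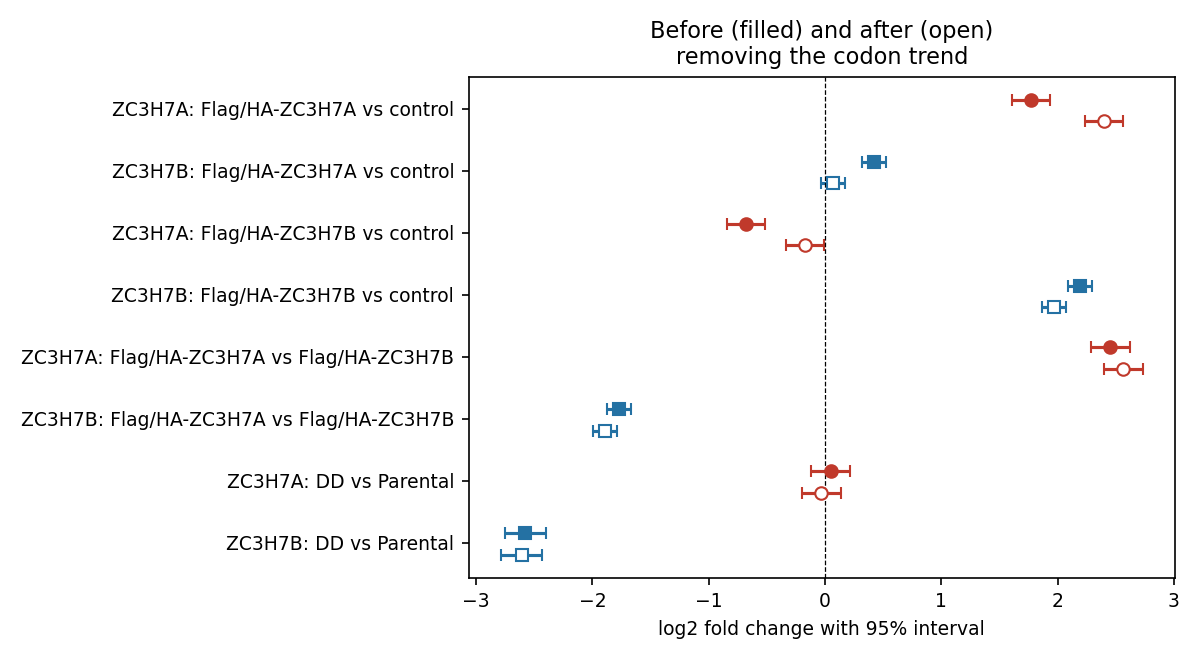
Log2 fold changes of ZC3H7A (circles) and ZC3H7B (squares) in the 4 comparisons, as measured (filled) and with the trend on codons ending in A or T removed (open), with 95% intervals. For ZC3H7B in Flag/HA-ZC3H7A the open marker, at 0.07, has an interval that includes 0, as does that of ZC3H7A in DD, at -0.03; that of ZC3H7A in Flag/HA-ZC3H7B ends at -0.01.

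The ratio of the paralogs within a library needs no scaling between libraries. Per kb of coding length, ZC3H7A over ZC3H7B was 1.29, 1.23 and 1.76 in Flag/HA-ZC3H7A, 0.0693, 0.0772 and 0.0798 in Flag/HA-ZC3H7B, and 0.538, 0.583 and 0.537 in Flag/HA-control. ZC3H7B RNA thus exceeded ZC3H7A RNA in every control library, and the order was turned in every Flag/HA-ZC3H7A library. Per kb of the longest transcript the order was the same, but the control ratios, 0.821, 0.891 and 0.820, were nearer to equal levels. Relative to Flag/HA-control, the mean log2 ratio differed by 1.35 in Flag/HA-ZC3H7A and by -2.87 in Flag/HA-ZC3H7B. Each of these gave an exact two-sided permutation p of 0.10, the smallest that 3 against 3 libraries allow.

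**Figure D4:**
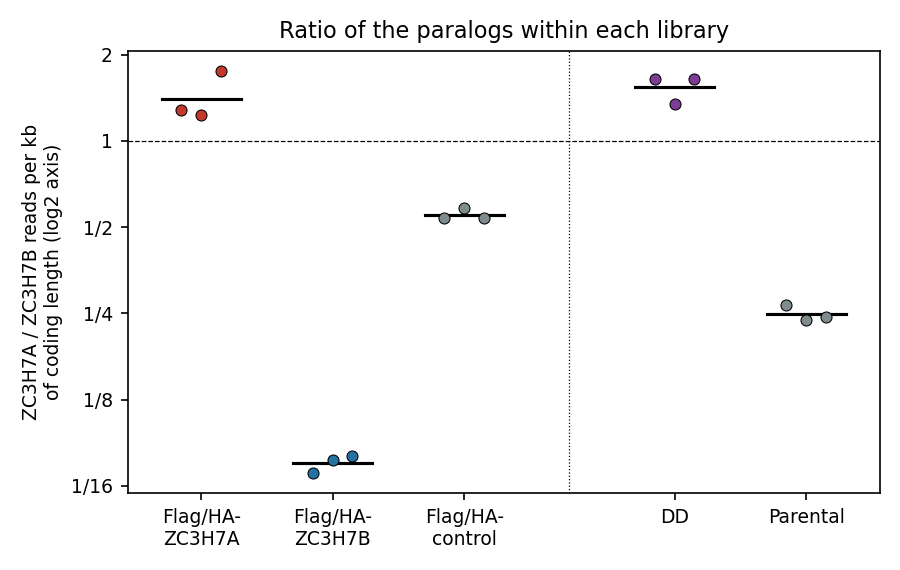
Ratio of ZC3H7A to ZC3H7B reads per kb of coding length in each library (log2 axis), with a bar at the geometric mean of each group and a dashed line at equal levels. The Flag/HA-ZC3H7A libraries (1.23 to 1.76) and the DD libraries (1.35 to 1.65) lie above the dashed line, and the other 9 libraries lie below it.

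In DD the order of the paralogs was also turned. The ratio of ZC3H7A to ZC3H7B took values of 1.65, 1.35 and 1.65 in the DD libraries, against 0.268, 0.237 and 0.244 in the Parental libraries, a log2 difference of 2.63 (exact two-sided permutation p = 0.10, the smallest possible). Summed over both genes, counts per kb of coding length were 938 ± 36.9 in DD and 2751 ± 189.6 in Parental (SD, n = 3 each), so DD held 34.1% of the Parental sum. This percent depends on the length used. Per kb of the longest transcript, ZC3H7A averaged 431 in DD and 416 in Parental, and ZC3H7B 183 in DD and 1094 in Parental. In the overexpression experiment the sum per kb of coding length was 6557 ± 340 in Flag/HA-ZC3H7A, 9948 ± 249 in Flag/HA-ZC3H7B and 3141 ± 23.4 in Flag/HA-control. Those sums were 2.09 and 3.17 times that of the control. The ratio in Flag/HA-control, 0.552 on average, and that in Parental, 0.249, come from different protocols, and protocol and cell line cannot be told apart in that gap.

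In the libraries labelled DD, ZC3H7B was reduced and ZC3H7A was not detectably so. ZC3H7B, the target of the shRNA, had 999.8, 1168 and 1083 normalized counts in DD, against 5948, 6484 and 6958 in Parental. All DD values lay below all Parental values, a separation for which the share of all genes is not given here. The fitted level in DD was 16.8% of Parental (95% interval 14.8% to 19.0%), a 5.96-fold difference (limma adjusted p = 4.19e-09), with a log2 fold change of -2.58 and an SE of 0.0817. In this comparison 29.5% of 18494 genes were called, 14.7% higher and 14.8% lower, and ZC3H7B took rank 104 from the lowest fold change.

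The ZC3H7B signal left in DD rested on 528, 493 and 514 reads, so it was far from the detection limit. Exact Poisson intervals, which cover counting error only, ran from 916 to 1089, from 1067 to 1276 and from 991 to 1180 normalized counts for the 3 libraries. At 369 ± 28.7 counts per kb of coding length, the remaining ZC3H7B RNA exceeded that of 37.1% of 12819 coding genes measured in DD. In Parental, at 2203 ± 172 per kb, it exceeded that of 82.4% of genes. Without replicate 3 of Parental, the library that stood apart, the log2 fold change was -2.52.

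ZC3H7A, the gene named as knocked out, had 1640, 1561 and 1771 normalized counts in DD, against 1585, 1528 and 1684 in Parental. The ranges overlapped. ZC3H7A in DD stood at 104% of Parental (95% interval 92.2% to 116%, limma adjusted p = 0.67), with a log2 fold change of 0.05 and an SE of 0.0770, and the interval reaches down to 92.2% of Parental. These values rested on 866, 659 and 841 reads in DD and 714, 620 and 773 reads in Parental. Read counts per gene do not show a small edit in the coding sequence or whether protein was made, so this row does not check the knockout label. With the codon trend removed, a fit in which 35.5% of genes were called, the difference was -0.03 (limma adjusted p = 0.77), and its sign therefore depended on that step.

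The codon trend was also drawn for the depletion experiment. In DD against Parental it stood at a log2 fold change of 0.03 for a share of 20% and 0.06 for 60%, and removing it left ZC3H7B at -2.61. In the plot of both sets of fold changes the measured and trend-free values of either gene in DD have overlapping intervals.

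The genes around ZC3H7A and ZC3H7B were examined to see whether the members moved with their chromosomal surroundings. For each, the 5 tested genes on either side in annotation order were taken. Beside ZC3H7B 9 of 10 were higher and 1 lower with Flag/HA-ZC3H7A (median log2 fold change 0.48, against -0.07 for all genes), and the same counts were found with Flag/HA-ZC3H7B (median 0.36, against -0.06). Over all genes 34.7% were higher with Flag/HA-ZC3H7A and 32.0% with Flag/HA-ZC3H7B. The cross-effect on ZC3H7B, at 0.42, was thus within the range of its neighbours. RANGAP1, which activates the GTPase Ran and lies next to ZC3H7B, averaged 14206 ± 1220 in Flag/HA-ZC3H7A and 9885 ± 153 in Flag/HA-control (log2 fold change 0.52, limma adjusted p = 3.07e-06). PHF5A, a component of the spliceosome, averaged 2742 ± 73.8 in Flag/HA-ZC3H7A and 1583 ± 43.4 in Flag/HA-control (log2 fold change 0.79, limma adjusted p = 1.04e-08).

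The exception was DNAJB7, a gene for a J-domain protein. It averaged 7.85 ± 0.970 in Flag/HA-ZC3H7A and 21.9 ± 2.35 in Flag/HA-control (log2 fold change -1.37, limma adjusted p = 1.71e-04). In Flag/HA-ZC3H7B it averaged 8.82 ± 2.63. Both transgene means were under the filter of 10, which DNAJB7 met through its control values, so its direction cannot be told apart from that filter. Of these neighbours it had the largest percent of codons that end in A or T, 68.9%. Between the transgene groups 3 of the 10 ZC3H7B neighbours were called, all higher in Flag/HA-ZC3H7A, where 44.3% of all genes were called and 23.9% were higher. Without replicate 3 of Flag/HA-ZC3H7A 6 were called.

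Around ZC3H7A, with Flag/HA-ZC3H7A 6 of 10 neighbours were higher and 2 lower, where 34.7% of all genes were higher and 41.2% lower (median log2 fold change 0.15, against -0.07 for all genes). With Flag/HA-ZC3H7B 3 of 10 were higher and 4 lower, near the 32.0% and 37.6% of all genes (median -0.03, against -0.06). TXNDC11, the nearest on one side, encodes a thioredoxin-domain protein and averaged 1039 ± 34.0 in Flag/HA-ZC3H7B and 1240.2 ± 36.1 in Flag/HA-control (log2 fold change -0.25, limma adjusted p = 1.05e-03). None of the neighbours reached the fold change of ZC3H7A in either comparison. Their fold changes ran from -0.58 to 0.52 with Flag/HA-ZC3H7A and from -0.55 to 0.43 with Flag/HA-ZC3H7B.

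In DD against Parental neither member moved with the neighbour that changed most. SNX29, a sorting nexin gene among the ZC3H7A neighbours, averaged 3627 ± 272 in DD and 1828 ± 231 in Parental (log2 fold change 0.99, limma adjusted p = 1.49e-05). SNN, which encodes the small membrane protein stannin, averaged 599 ± 26.6 in DD and 353 ± 39.9 in Parental (log2 fold change 0.77, limma adjusted p = 3.34e-04). TEF, a transcription factor gene next to ZC3H7B, averaged 431 ± 21.8 in DD and 211 ± 21.6 in Parental (log2 fold change 1.03, limma adjusted p = 7.04e-05). XPNPEP3, another neighbour of ZC3H7B, was lower, the direction of ZC3H7B itself. It averaged 1560 ± 60.3 in DD and 2238 ± 15.1 in Parental (log2 fold change -0.52, limma adjusted p = 1.65e-04). Of the 10 neighbours of ZC3H7A 3 were called, all higher, and of those of ZC3H7B 4 were higher and 1 lower. Over all genes 29.5% were called, 14.7% higher and 14.8% lower. The total of 3 beside ZC3H7A was near that 29.5%, but all 3 were higher, where 14.7% of all genes were. The count of 5 beside ZC3H7B was 2 without DD replicate 1, and 3 without DD replicate 2, DD replicate 3, Parental replicate 1 or Parental replicate 2.

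**Figure D5:**
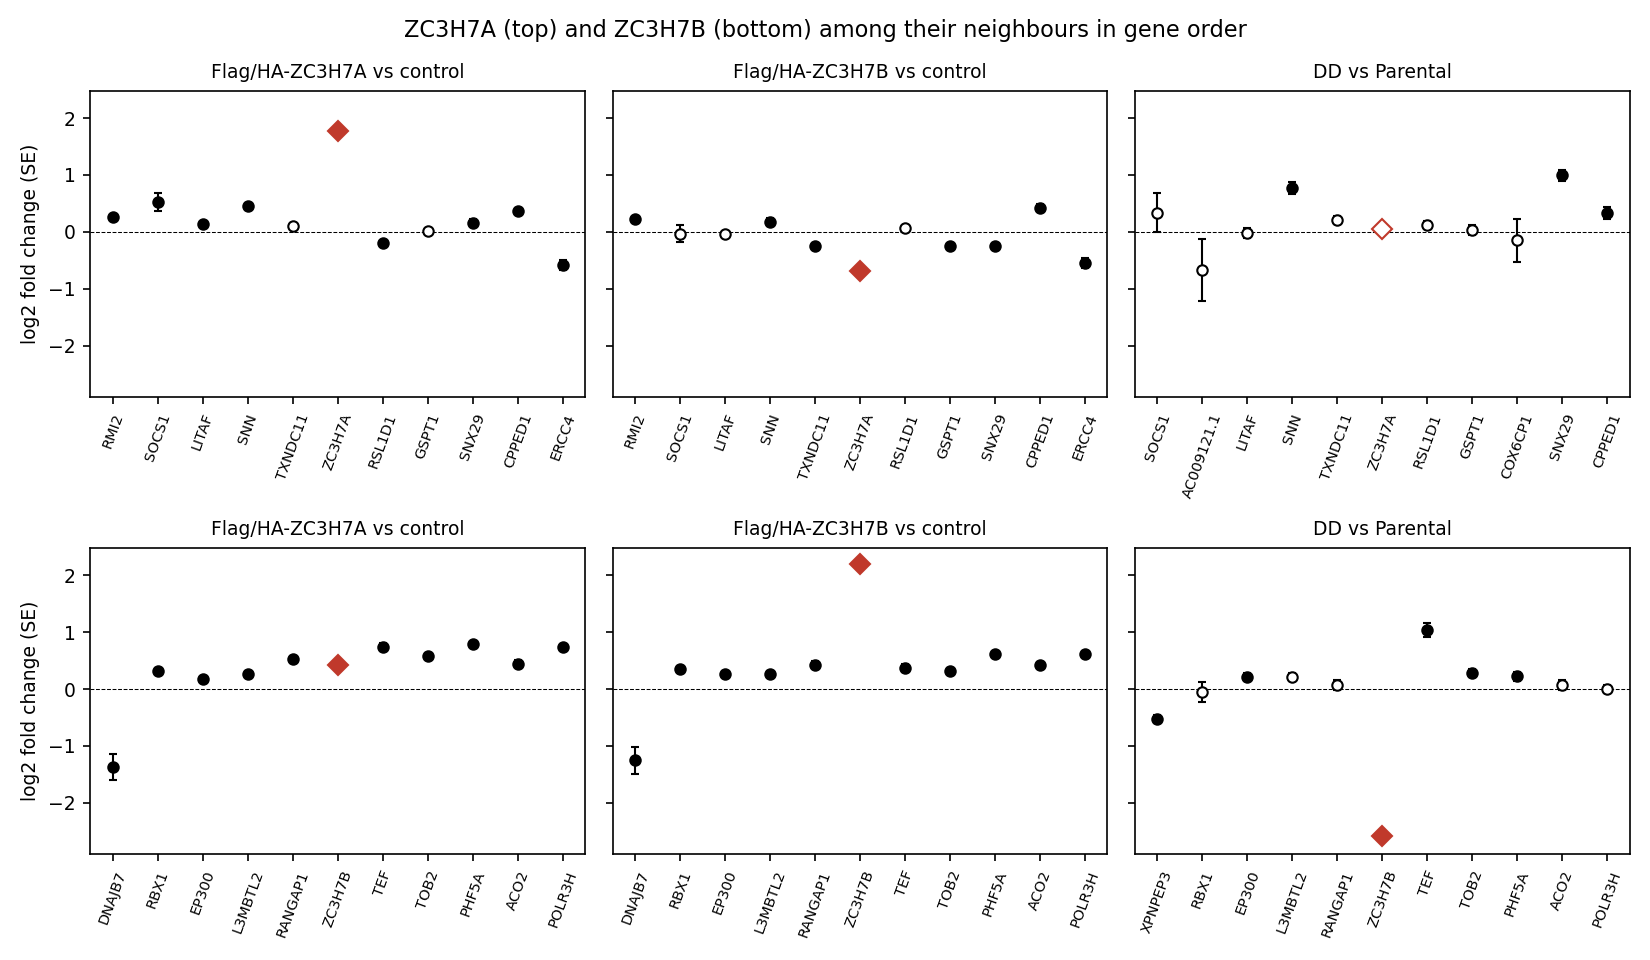
Log2 fold changes (SE as error bars) of ZC3H7A (top row) and ZC3H7B (bottom row), shown as red diamonds, and of the 5 tested genes on either side in annotation order, for 3 comparisons. Filled markers were called at an adjusted p under 0.05; 9 of the 10 ZC3H7B neighbours are higher with either transgene, and in DD ZC3H7B stands alone at -2.58.

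The genes whose levels followed each member most closely were taken by Pearson correlation over the 15 libraries, centred within each experiment, among 11773 genes with a mean of at least 100 in both experiments. The correlations are descriptions, since libraries of a group share their treatment. For ZC3H7A they included RNASET2 (r = 0.976), SCD (r = 0.976), RPL22L1 (r = 0.973) and FAM69B (r = 0.969). These 4 genes had a positive log2 fold change with Flag/HA-ZC3H7A and a negative one with Flag/HA-ZC3H7B, as ZC3H7A did. They were selected for following ZC3H7A, so these directions follow from the selection and are no separate result. RPL22L1, a paralog of the ribosomal protein gene RPL22, had the largest log2 fold change of the 4 with Flag/HA-ZC3H7A, 2.48, and one of -0.31 with Flag/HA-ZC3H7B. SCD, the stearoyl-CoA desaturase, had 0.50 and -0.14 in those comparisons.

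For ZC3H7B the closest genes were GATA3 (r = 0.992), RCC1 (r = 0.986), SSU72 (r = 0.977), RAI2 (r = 0.974) and SRM (r = 0.971). All 5 had a positive log2 fold change with Flag/HA-ZC3H7B and a negative one in DD, which again follows from selecting genes by their correlation with ZC3H7B. GATA3, a zinc-finger transcription factor, had a log2 fold change of 1.06 with Flag/HA-ZC3H7B and -1.56 in DD against Parental. RCC1, the exchange factor of Ran, had 0.65 and -0.68 in those comparisons, and SRM, the spermidine synthase, 0.60 and -0.64. The members themselves had r = -0.40 with each other over the same libraries.

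The members were last set beside a list of 30 genes for translational repression, cap and poly(A) binding, deadenylation and microRNA function, all of which were tested. With Flag/HA-ZC3H7A 10 were higher and 14 lower (median log2 fold change -0.03, against -0.07 for all genes), and with Flag/HA-ZC3H7B 11 were higher and 10 lower (median -0.02, against -0.06). These shares are near those of all genes. AGO2, an Argonaute protein that binds microRNAs, averaged 2164 ± 24.3 in Flag/HA-ZC3H7A and 988 ± 77.1 in Flag/HA-control (log2 fold change 1.13, limma adjusted p = 6.90e-09). CNOT3, a subunit of the CCR4-NOT deadenylase, averaged 4915 ± 390 in Flag/HA-ZC3H7A and 2552 ± 36.0 in Flag/HA-control (log2 fold change 0.94, limma adjusted p = 1.81e-08). Both have few codons ending in A or T, 27.1% and 26.0%. With Flag/HA-ZC3H7B AGO2 and CNOT3 were higher as well (log2 fold changes 0.49 and 0.88, limma adjusted p = 7.82e-06 and 5.28e-08).

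Other members of the list fell. EIF4G3, a translation initiation scaffold, averaged 3911 ± 156 in Flag/HA-ZC3H7A and 8474 ± 263 in Flag/HA-control (log2 fold change -1.12, limma adjusted p = 3.53e-09), with 57.7% of codons ending in A or T. TNRC6B, a partner of Argonaute proteins, had a log2 fold change of -0.62 in the same comparison (limma adjusted p = 2.35e-06), with 49.5%. EIF4G3 and TNRC6B were also lower with Flag/HA-ZC3H7B (log2 fold changes -0.30 and -0.41, limma adjusted p = 1.76e-04 and 9.98e-05). LIN28B, which blocks maturation of let-7 microRNAs, averaged 1169 ± 109 in Flag/HA-ZC3H7B and 3136 ± 4.14 in Flag/HA-control (log2 fold change -1.43, limma adjusted p = 3.22e-07), with 57.0%. LIN28B was also lower with Flag/HA-ZC3H7A (log2 fold change -0.71, limma adjusted p = 7.40e-05). In DD against Parental it was lower as well (log2 fold change -0.97, limma adjusted p = 1.96e-05). These genes were named for the size of their changes, so their codon shares are a description. Other called genes of the list went the other way with Flag/HA-ZC3H7A, higher with a large share or lower with a small one.

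Between the transgene groups 7 of the 30 were higher and 7 lower in Flag/HA-ZC3H7A, near the 23.9% and 20.4% of all genes. GIGYF2, which recruits the cap-binding protein 4EHP to repress translation, averaged 2724 ± 74.6 in Flag/HA-ZC3H7A and 4080 ± 35.5 in Flag/HA-ZC3H7B (log2 fold change -0.58, limma adjusted p = 2.30e-07). That total of 14 called was 22 without replicate 3 of Flag/HA-ZC3H7A. In DD against Parental 3 of the 30 were higher and 7 lower, where 14.7% of all genes were higher and 14.8% lower (median -0.03, against 0.01 for all genes). That total of 10 was 6 without any 1 of the DD replicates or without Parental replicate 2, and 18 without Parental replicate 3.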

How the data were processed

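The deposited table holds normalized counts, treated as a signal: the authors divided whole read counts by a factor per library, since every value lay within 0.01 of a whole number of reads, and these reads were recovered. The tools named are STAR 2.7.10b, HTSeq and DESeq2, and the build is hg19, per the submitters' processing notes; the roles, settings and annotation are not given in the sources used here. No 2 libraries of a group were identical.

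Tests used limma 3.58.1 (R 4.3.3), moderated by empirical Bayes with a trend on the mean, on log2(value + 1). Fold changes are on that scale. Genes had to reach 10 in 3 or more libraries, and calls an adjusted p under 0.05 (two-sided). The 9 overexpression libraries shared a fit, and the 6 depletion libraries had their own. Names were matched to GENCODE 29 on GRCh38 (34274 current and 1240 older symbols), used for sequences and gene order. The codon trend was a loess (span 0.3) of fold change on the percent of codons that end in A or T. The fits were also run on simulated data in which far fewer genes changed than were called here. Removal of the codon trend was not part of that simulation.

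Genes named were the members, the 5 most like each by correlation, the 5 tested neighbours on either side, and up to 6 called genes of the list of 30 by size of change; 1 gene this rule selects is not reported here. The members, lists and marker genes were chosen with earlier results of these data known. Alternatives were other scalings, pseudocounts and filters, edgeR 4.0.16 and DESeq2 1.42.0 on the recovered reads, a replicate block, the codon trend and leaving out each library.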

Additional observations from a re-analysis of the deposited data

How the results depend on the processing

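Depth did not limit the members, whose fewest reads were 493, but 3 libraries a group limit every exact test to p = 0.10. Over the settings tried the log2 fold change ran from 1.67 to 2.40 for ZC3H7A and from 0.07 to 0.52 for ZC3H7B with Flag/HA-ZC3H7A, from -0.76 to -0.17 for ZC3H7A and from 1.96 to 2.28 for ZC3H7B with Flag/HA-ZC3H7B, and from -2.63 to -2.52 for ZC3H7B in DD. No scaling turned a member's direction; library totals shifted the median of all genes by -0.11 with Flag/HA-ZC3H7A, where ZC3H7B then stood at 0.32. With edgeR, DESeq2 and the other pseudocounts and filters all members kept their calls. Removing the codon or transcript trend ended the call of ZC3H7B with Flag/HA-ZC3H7A (0.069, also 0.071 with span 0.75, 0.068 with 2 groups and 0.090 with the transcript trend) and, in 1 of 4 versions, of ZC3H7A with Flag/HA-ZC3H7B (-0.17); the others gave -0.20 with span 0.75, -0.17 with 2 groups and -0.21 with the transcript trend, all called. ZC3H7A in DD turned to -0.034 (codon trend), -0.028 (span 0.75) and -0.0069 (transcript trend). With Flag/HA-ZC3H7A the codon trend also turned RCC1 to -0.10, RMI2 to -0.083, RSL1D1 to 0.21, SNX29 to -0.064 and SRM to -0.15, and with Flag/HA-ZC3H7B SNN to -0.055. Leaving out 1 library gave 3 to 6 called ZC3H7B neighbours and 11 to 22 called genes of the list of 30 between the transgene groups, and 2 to 6 and 6 to 18 in DD. In DD 6 neighbours of ZC3H7A were called at a filter of 100, in place of 3, where other genes become neighbours. All genes called in DD numbered 5448, and 3563 without DD replicate 1. Deviations of same-numbered libraries correlated at 0.13, 0.01 and 0.30 between the transgene groups and at -0.06 to 0.04 in the other pairs of groups, so not every pair exceeded 0.1 and the numbers were not taken to pair them; with a replicate block 4542 genes were called in DD, with 3 neighbours of ZC3H7B and 6 of the list of 30, and no member changed its call. Of 2456 alternative values over 139 results, 98 for single genes other than the members lost their call without turning; the cause was not tested.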
